A study of Mus musculus with 52 samples.

Results

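The Vmn2r genes encode the type 2 vomeronasal receptors, and 121 of the 20807 protein-coding genes on chromosomes 1 to 19 belong to this family. Members were taken by symbol, as every GENCODE M21 gene on these chromosomes that is annotated as protein-coding and whose name starts with Vmn2r. They comprised 51 genes on chromosome 7, 32 on chromosome 17, 11 on chromosome 5, 9 on chromosome 6, 8 on chromosome 10, 7 on chromosome 3, 2 on chromosome 14 and 1 on chromosome 4. Vmn2r121 lies on X and was left out. There were 2 members, Vmn2r-ps159 and Vmn2r-ps130, with a pseudogene name and a protein-coding annotation. The rule for members used no measured value, but the family was chosen with earlier results of these data known.

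Vomeronasal receptors of this type are G protein-coupled receptors with a large extracellular domain, and neurons of the basal layer of the vomeronasal organ use them to detect peptide and protein cues. The genes sit in tandem arrays that have expanded by duplication, and many lie among pseudogene copies of themselves. SmcHD1 is a non-canonical SMC family protein of the inactive X chromosome and of several repeated autosomal gene clusters, CTCF is a zinc finger protein that binds a defined DNA element, and Rad21 is a subunit of cohesin, which CTCF holds in place along the chromosome.

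Chromatin immunoprecipitation with sequencing was done in female clonal mouse embryonic fibroblasts (MEFs) from an F2 cross of FVB with castaneus, and 8 peak lists made from 24 libraries were used. The wt lists came from clone Wt2A1, the mut lists from clone Mut5A6, which is null for SmcHD1 through the germline MommeD1 mutation, and the somKO lists from clones A3-3 and D4, in which SmcHD1 was disrupted with CRISPR in somatic cells. Lists merged 3 libraries each for SmcHD1 in wt and mut and for CTCF in wt and mut, 4 each for CTCF and Rad21 in somKO, and 2 each for Rad21 in wt and mut. No list separates the alleles, each genotype of the pair wt and mut is 1 clone, and on the autosomes of an F2 cross the clones differ in parental alleles as well as in SmcHD1, so that clone and genotype cannot be told apart. The somKO clones were derived from another wild-type clone than Wt2A1 and carry 3 SmcHD1 alleles.

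Each list is 1 value per place with no spread between replicates, and the sequencing depth behind it is unknown. Intervals are therefore 95% intervals for counting error alone, and no test was made. A member's window was the gene with 10 kb on either side. The merged windows covered 5.96 Mb, against 2463 Mb of chromosomes 1 to 19. The lists held between 241 peaks on these chromosomes, for SmcHD1 in mut, and 87288, for Rad21 in somKO.

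The sequences below show the kinds of site found at the genes. The first set holds the sites in member windows with an exact match to the CTCF core consensus inside a CTCF peak of all 3 genotypes, chosen after their values were seen. There were 3 such sites, beside Vmn2r20, beside Vmn2r21 and in Vmn2r76, and each also held a Rad21 peak in the 3 genotypes. They are printed for the plus strand of mm10 (GRCm38), from RefSeq's assembly, with the core of 12 positions in capitals. The core lies on the minus strand at each.
Vmn2r20, chr6:123424579-123424690: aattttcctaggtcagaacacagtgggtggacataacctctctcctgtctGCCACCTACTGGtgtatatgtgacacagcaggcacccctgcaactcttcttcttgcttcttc
Vmn2r21, chr6:123539924-123540035: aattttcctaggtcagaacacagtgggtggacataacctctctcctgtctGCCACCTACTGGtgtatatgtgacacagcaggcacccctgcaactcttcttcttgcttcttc
Vmn2r76, chr7:86211500-86211611: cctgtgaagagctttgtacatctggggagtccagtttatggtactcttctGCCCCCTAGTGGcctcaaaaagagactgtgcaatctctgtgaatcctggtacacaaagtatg
The Vmn2r20 and Vmn2r21 stretches were identical at 112 of 112 positions, whereas either matched the Vmn2r76 stretch at 46 of 112. Reads shorter than the identical stretch cannot be assigned to Vmn2r20 or Vmn2r21, so that their CTCF values are not independent of each other.

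The second set holds the SmcHD1 wt peaks with the highest scores, at most 1 per cluster of genes, shown for their central 300 bases on the plus strand of mm10. Capitals mark the word ATCTGAGA, chosen after the sequence was seen because no word of 8 bases was more frequent in the Vmn2r-ps159 stretch (1 overlapping word was as frequent).
Vmn2r24 and Vmn2r25, chr6:123816947-123817246: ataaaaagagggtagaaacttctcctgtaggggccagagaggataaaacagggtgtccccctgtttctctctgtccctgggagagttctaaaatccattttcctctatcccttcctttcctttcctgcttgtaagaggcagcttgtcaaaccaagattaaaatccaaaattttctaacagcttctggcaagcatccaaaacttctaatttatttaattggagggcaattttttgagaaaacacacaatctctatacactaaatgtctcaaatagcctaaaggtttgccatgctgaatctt
Vmn2r-ps159, chr4:156340916-156341215: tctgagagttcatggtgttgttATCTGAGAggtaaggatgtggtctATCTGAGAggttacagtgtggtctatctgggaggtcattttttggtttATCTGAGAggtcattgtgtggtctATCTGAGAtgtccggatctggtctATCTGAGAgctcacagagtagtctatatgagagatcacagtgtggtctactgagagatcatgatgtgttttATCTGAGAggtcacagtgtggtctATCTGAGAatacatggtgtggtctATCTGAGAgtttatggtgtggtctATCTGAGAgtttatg
Vmn2r72, chr7:85760399-85760698: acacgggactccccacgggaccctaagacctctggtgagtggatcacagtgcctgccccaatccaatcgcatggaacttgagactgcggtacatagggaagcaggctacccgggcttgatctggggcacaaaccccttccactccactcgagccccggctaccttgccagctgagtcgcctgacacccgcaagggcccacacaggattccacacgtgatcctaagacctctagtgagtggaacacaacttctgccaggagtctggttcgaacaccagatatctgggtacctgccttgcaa
The Vmn2r-ps159 stretch is a tandem repeat: the word occurred 9 times, with a median spacing of 24 bases. On either strand, 1.67% of the 5154 autosomal SmcHD1 wt peaks held the word in their central 300 bases, and 2 peaks held it at least 4 times. None of the 3 peaks held a match to the CTCF core with at most 1 mismatch.

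CTCF and Rad21 peaks were sparse at the Vmn2r genes in all genotypes. In wt cells the windows held 25 CTCF peaks, or 4.20 per Mb (2.71 to 6.19), against 24.03 ± 6.74 per Mb (mean ± SD of 19 autosomes) and 23.6 per Mb over all of them together, which is 5.64-fold lower. They held 21 Rad21 wt peaks, or 3.52 per Mb (2.18 to 5.39), against 27.2 ± 6.71 per Mb and 26.7 over all, which is 7.58-fold lower. No autosome had a density as low as the windows in any of the 6 CTCF and Rad21 lists. The lowest autosome had 15.4 CTCF and 18.4 Rad21 peaks per Mb in wt.

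**Figure D1:**
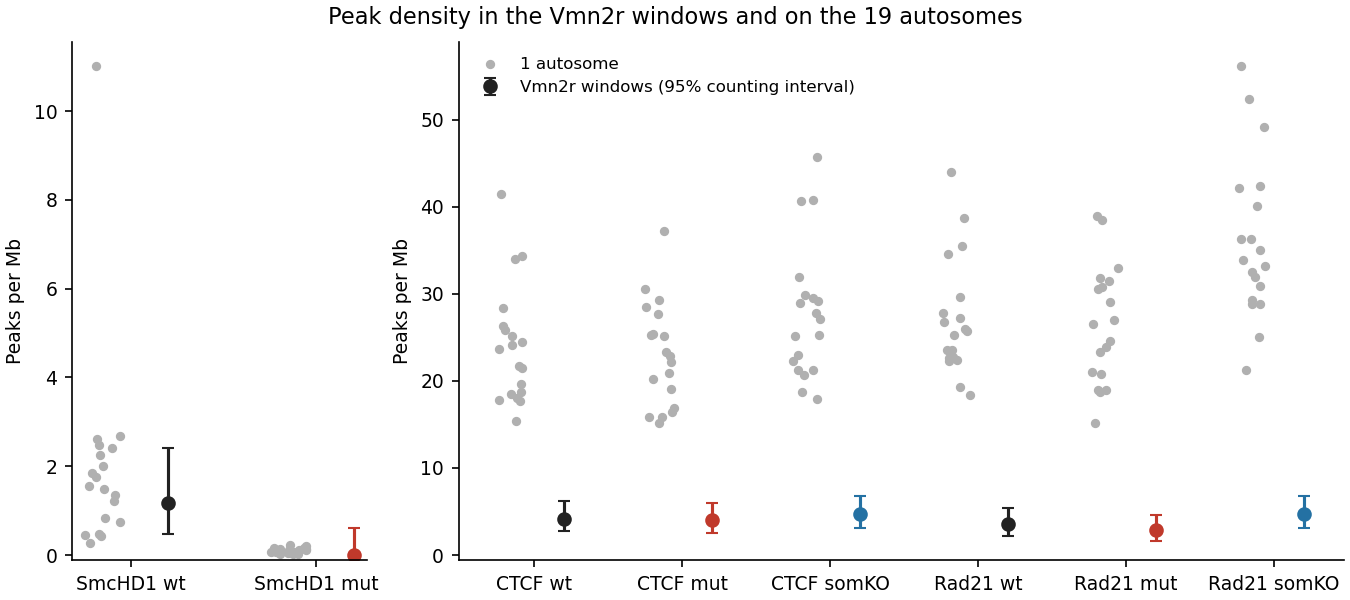
Peaks per Mb in the Vmn2r windows (coloured points, bars for the 95% counting interval) and on each of the 19 autosomes (grey points), for the 8 lists on linear axes. In the CTCF and Rad21 lists the windows sit between 2.85 and 4.70 peaks per Mb, below every autosome, whereas the SmcHD1 wt value of 1.17 lies within the range of the autosomes.

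Counted by gene, 18 of 121 members had a CTCF wt peak, a share of 14.9% (Wilson interval 9.62 to 22.3), against 77.8% of all protein-coding genes on the same chromosomes. In mut the members with a CTCF peak numbered 17, against 78.3% of all genes, and in somKO 19, against 80.6%. A Rad21 peak was present at 16 members in wt, against 79.2% of all genes, at 16 in mut, against 79.9%, and at 21 in somKO, against 82.4%. Among the 5696 genes whose windows had the width of the central members (36.3 to 65.9 kb, the 10th to 90th percentile), 83.7% had a CTCF and 86.3% a Rad21 wt peak. Of the 121 members, 94 (77.7%) had no peak in any of the 8 lists, against 13.4% of all genes.

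No member had a peak of any list within 1 kb of its annotated start. Over all protein-coding genes this share was 27.7% for CTCF and 49.1% for Rad21 in wt, and 4.33% for SmcHD1. The CTCF wt peaks in the windows were instead intergenic (10), intronic (10) or exonic (5), and those in genes included sites in neighbours, such as an intron of Tmed11 beside Vmn2r8. Of the 21 Rad21 wt peaks, 9 were intergenic, 7 intronic and 5 exonic.

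The density rose with distance from the genes. For CTCF wt, counted by peak midpoints, it was 2.99 per Mb in gene bodies, 6.15 from 0 to 10 kb, 6.33 from 10 to 50 kb, 12.7 from 50 to 100 kb, 21.7 from 100 to 250 kb and 32.5 from 250 to 500 kb. For Rad21 wt the corresponding values were 2.17, 5.27, 7.36, 15.0, 19.9 and 33.5 per Mb. Both lists thus passed the density of all autosomes only beyond 250 kb. SmcHD1 wt ranged from 1.09 per Mb in gene bodies to 2.39 per Mb at 100 to 250 kb, with overlapping intervals throughout.

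**Figure D2:**
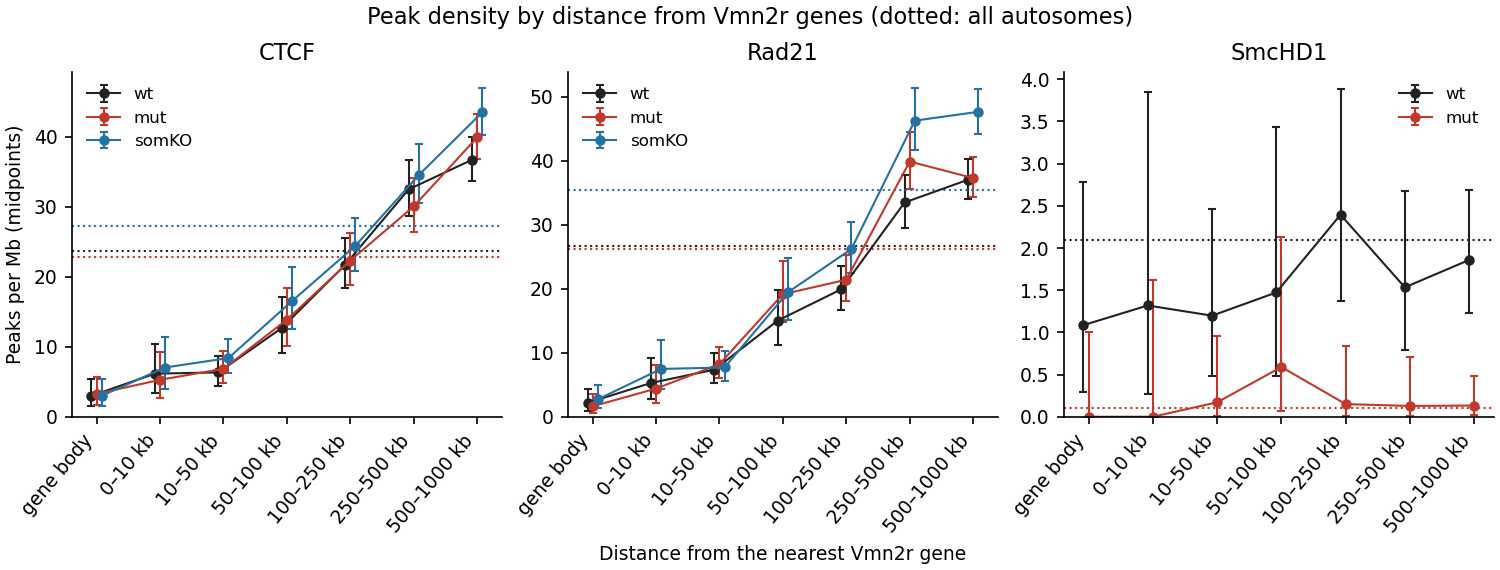
Peaks per Mb, by midpoint, in gene bodies of the Vmn2r genes and in rings outward from them, for CTCF, Rad21 and SmcHD1 (bars: 95% counting interval, dotted lines: all autosomes). CTCF and Rad21 climb from between 1.63 and 3.26 per Mb in gene bodies to between 36.7 and 47.7 per Mb at 500 to 1000 kb in every genotype, while SmcHD1 wt shows no such slope.

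The windows also differed from the rest of the autosomes in sequence. Their GC content was 37.7%, against 41.9% over the autosomes, and they held 4.97 CpG per kb, against 8.51. Words of 50 bases that occur at a single place in the genome made up 66.1% of the windows and 86.9% of sampled positions on the autosomes. Per Mb of unique sequence, the CTCF wt density was 6.35 in the windows and 27.2 on the autosomes, and the Rad21 wt density 5.34 and 30.7. On that scale the ratios were 0.234 for CTCF and 0.174 for Rad21, against 0.177 and 0.132 per Mb of all sequence. The part of read mapping in the remaining difference was not tested.

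The CTCF element itself was rarer. The windows held 5 exact cores, or 0.839 per Mb (0.272 to 1.96), against 4.97 per Mb over the autosomes. With at most 1 mismatch they held 313, or 52.5 per Mb (46.9 to 58.7), against 83.4. Of the 5 exact cores, 3 lay in a CTCF wt peak, a share of 60% (23.1 to 88.2), against 67.9% of 12245 on the autosomes. Of the 313 with at most 1 mismatch, 20 did, a share of 6.39% (4.17 to 9.66), against 20.1%. Among the CTCF wt peaks in the windows, 72.0% held such a core, against 60.5% of all autosomal CTCF wt peaks. The core is a consensus of 12 positions with alternative letters at 4 of them, searched on both strands, and a match is a description of the letters only.

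The 121 genes fell into 19 clusters when neighbours less than 500 kb apart were joined, and CTCF and Rad21 peaks were unevenly shared among them. Peaks, lengths and unique words of a cluster refer to the windows of its genes, not to the sequence between windows. Coordinates give the full span. The cluster from Vmn2r8 to Vmn2r17 on chromosome 5 (chr5:108791843-109458459, 10 genes) held 7 CTCF and 9 Rad21 peaks in wt. The cluster from Vmn2r19 to Vmn2r27 on chromosome 6 (chr6:123308333-124231856, 9 genes) held 8 and 4. These clusters, singled out after their values were seen, held 15 of the 25 CTCF wt peaks in 0.941 Mb, which is 15.9 per Mb (8.92 to 26.3). The other 102 members held 10 in 5.02 Mb, or 1.99 per Mb (0.956 to 3.66). The share of unique words was 67.6% in the former and 65.8% in the latter. It was 76.4% in the chromosome 5 cluster and 60.3% in the chromosome 6 cluster. The CTCF wt peaks at Vmn2r20 and Vmn2r21 and 1 at Vmn2r22 (chr6:123623874-123624084) had 0% unique words. At least 50% of sampled words were unique in 96.3% of autosomal CTCF wt peaks. The part of read mapping in the density of these clusters was not tested.

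The largest cluster was that of 22 genes from Vmn2r90 to Vmn2r110 on chromosome 17 (chr17:17703747-20596423), with 85.2% unique words. Over 1.16 Mb of windows it held 1 CTCF and no Rad21 peak in wt. That peak lay at Vmn2r106, which held 2 CTCF peaks in mut and none in somKO. From Vmn2r65 to Vmn2r76 on chromosome 7, where 86.6% of words were unique, 12 genes in 0.552 Mb held 1 CTCF and 1 Rad21 peak in each genotype, both at Vmn2r76. The cluster from Vmn2r29 to Vmn2r37 was the least readable, with 13.1% unique words. Its windows held 1 CTCF peak in each genotype, at Vmn2r31, and a Rad21 peak there in mut and somKO only. Peaks of all 8 lists at a second start of Vmn2r29, described below, lay between the windows and are not counted here. The windows from Vmn2r46 to Vmn2r52, with 31.1% unique words, held no peak in any list.

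The remaining clusters of several genes were thinly covered. From Vmn2r1 to Vmn2r7 on chromosome 3, the 3 CTCF and 3 Rad21 wt peaks all lay at Vmn2r7. Of the 7 genes from Vmn2r57 to Vmn2r63, Vmn2r57, Vmn2r59 and Vmn2r63 held peaks. From Vmn2r80 to Vmn2r83 all peaks lay at Vmn2r83. From Vmn2r84 to Vmn2r87 there were Rad21 peaks alone, at Vmn2r85 and Vmn2r86. From Vmn2r111 to Vmn2r117, peaks lay at Vmn2r111, Vmn2r112 and Vmn2r117. The clusters from Vmn2r53 to Vmn2r56, from Vmn2r77 to Vmn2r79 and from Vmn2r88 to Vmn2r89 held no peak of any list in their windows. Neither did the lone genes Vmn2r18, Vmn2r28, Vmn2r118 and Vmn2r120. With Vmn2r46 to Vmn2r52, these 8 clusters comprised 20 genes and 0.928 Mb of windows.

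**Figure D3:**
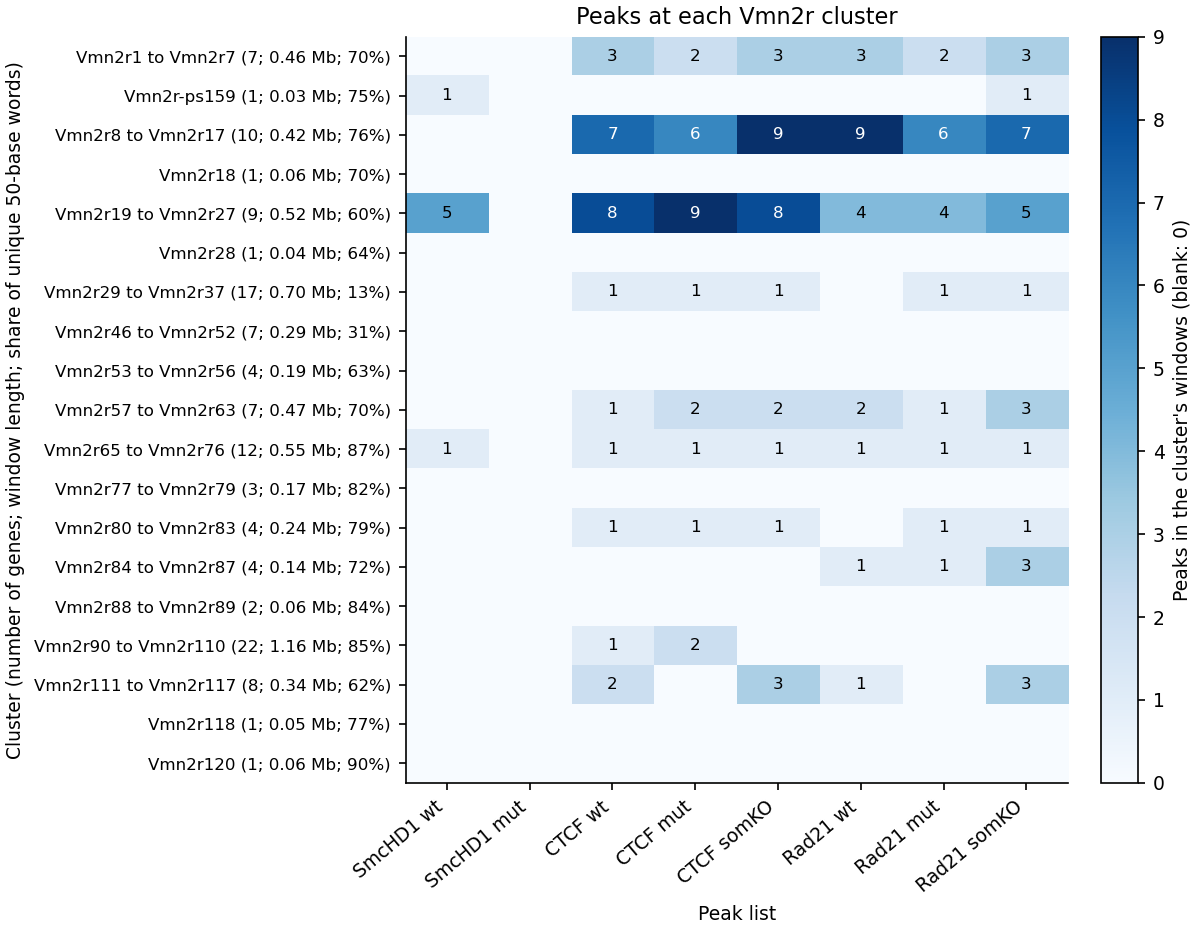
Peaks in the windows of each of the 19 Vmn2r clusters (rows, in genome order, with the number of genes, window length and share of unique words) in the 8 lists (columns). The number of peaks is printed in each cell and a blank cell is 0. The rows from Vmn2r8 to Vmn2r17 and from Vmn2r19 to Vmn2r27 hold 15 of the 25 CTCF and 13 of the 21 Rad21 wt peaks but 12 of the 28 Rad21 somKO peaks, and the 22 genes from Vmn2r90 to Vmn2r110 hold at most 2 in any list.

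SmcHD1 peaks at the family were few. The wt list had 7 in the windows, or 1.17 per Mb (0.472 to 2.42), against 1.99 ± 2.32 per Mb over the 19 autosomes, with a range from 0.269 to 11.01, the highest being chromosome 5. Relative to the 2.09 per Mb of all autosomes together, the ratio was 0.561 (0.226 to 1.16), an interval that includes equal density, and 6 autosomes had a lower density than the windows. At least 1 SmcHD1 wt peak was present at 5 of 121 members, 4.13% (1.78 to 9.31), against 9.44% of all protein-coding genes. Among the 5696 genes with windows of the width of the central members the share was 9.06%, which lies inside this interval. In mut, which lacks SmcHD1 and gives the background of the antibody, there was none at the members, against 0.98% of all genes. A count of 0 in 5.96 Mb has a counting interval that reaches up to 0.619 peaks per Mb. At the autosomal mut density of 0.0979 per Mb only 0.583 peaks would fall in the windows, so that the background was not detectable here.

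The SmcHD1 wt peaks were concentrated at 1 gene. Vmn2r20 held 4, of which 3 lay inside the gene (2 in introns, 1 in an exon) with scores at percentiles 12.3, 12.3 and 35.1 of the list. The other lay 6.30 kb before its start, at percentile 72.1. Vmn2r24 and Vmn2r25, whose windows overlap, shared 1 peak in an exon of Vmn2r24, at percentile 85.1. Vmn2r-ps159 and Vmn2r72 had 1 each, at percentiles 82.1 and 37.6. The other 116 members had none. Without the chromosome 6 cluster 2 peaks remained.

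Unique sequence differed widely among these peaks. In 5 of the 7 at least 50% of sampled words were unique, against 65.5% of autosomal SmcHD1 wt peaks. The share was 100% in the Vmn2r-ps159 peak, 90 to 100% in the 3 peaks inside Vmn2r20, 70% in the Vmn2r24 peak and 15% in the Vmn2r72 peak. None was unique in the peak before the start of Vmn2r20, which was also the only one of the 7 to overlap a CTCF or a Rad21 wt peak. This gives 14.3% (2.57 to 51.3) for either, against 24.5% and 30.7% of all autosomal SmcHD1 wt peaks. Under a minimum overlap of 50% of both peaks it overlapped no CTCF peak, and among peaks with scores of at least 50 the share was 33.3% for CTCF and for Rad21. It ended before the CTCF core printed above for Vmn2r20.

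Joined where they overlapped across the 6 CTCF and Rad21 lists, the peaks in the windows made 37 sites. A peak that overlaps a site counts for it even if the peak itself lies outside the windows. An example is CTCF at the Vmn2r11 site at chr5:109031874-109034223, where only the Rad21 peaks reach the window. Sites that do not overlap can still lie side by side. A CTCF peak was present in some genotype at 30 of them and a Rad21 peak at 28, with 21 holding both. In wt, 16 of the 21 Rad21 peaks overlapped a CTCF peak, 76.2% (54.9 to 89.4), against 58.5% ± 2.76 (SD over 19 autosomes). In mut this was 14 of 17, 82.4% (58.97 to 93.81), against 58.55% ± 3.92, which lies just below the interval. In somKO it was 20 of 28, 71.4% (52.9 to 84.8), against 54.5% ± 3.39. The converse share, CTCF peaks with Rad21, was 64% (44.5 to 79.8) in wt, against 68.1% ± 3.27. It was 54.2% (35.1 to 72.1) in mut, against 69.1% ± 3.28, and 67.9% (49.3 to 82.1) in somKO, against 74.8% ± 2.49.

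CTCF was present in wt, mut and somKO at 18 sites and Rad21 at 15, and both in all 3 genotypes at 11. The 11 lay at Vmn2r7 (2 sites), Vmn2r8, Vmn2r9, Vmn2r11, Vmn2r13, Vmn2r19, Vmn2r20, Vmn2r21, Vmn2r22 and Vmn2r76. Counted by gene, 21 members had a CTCF peak in any genotype and 14 of them in all 3, against 91.9% over all genes. For Rad21 this was also 14 of 21, against 91.5%. The number of peaks per gene was not matched in this comparison. At the 18 shared CTCF sites the score had a median percentile within its list of 66.8 (wt), 73.4 (mut) and 71.9 (somKO). The highest CTCF score in wt was at Vmn2r8, in an intron of the neighbour Tmed11 18.5 kb from the start of Vmn2r8, with percentiles of 94.0 (wt), 77.9 (mut) and 92.7 (somKO). At Vmn2r20 the percentiles were 83.4, 89.0 and 96.5, and at Vmn2r9 82.5, 82.1 and 77.8. The strongest Rad21 site in wt was at Vmn2r11, with percentiles of 86.9, 89.7 and 85.8 in the same order.

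**Figure D4:**
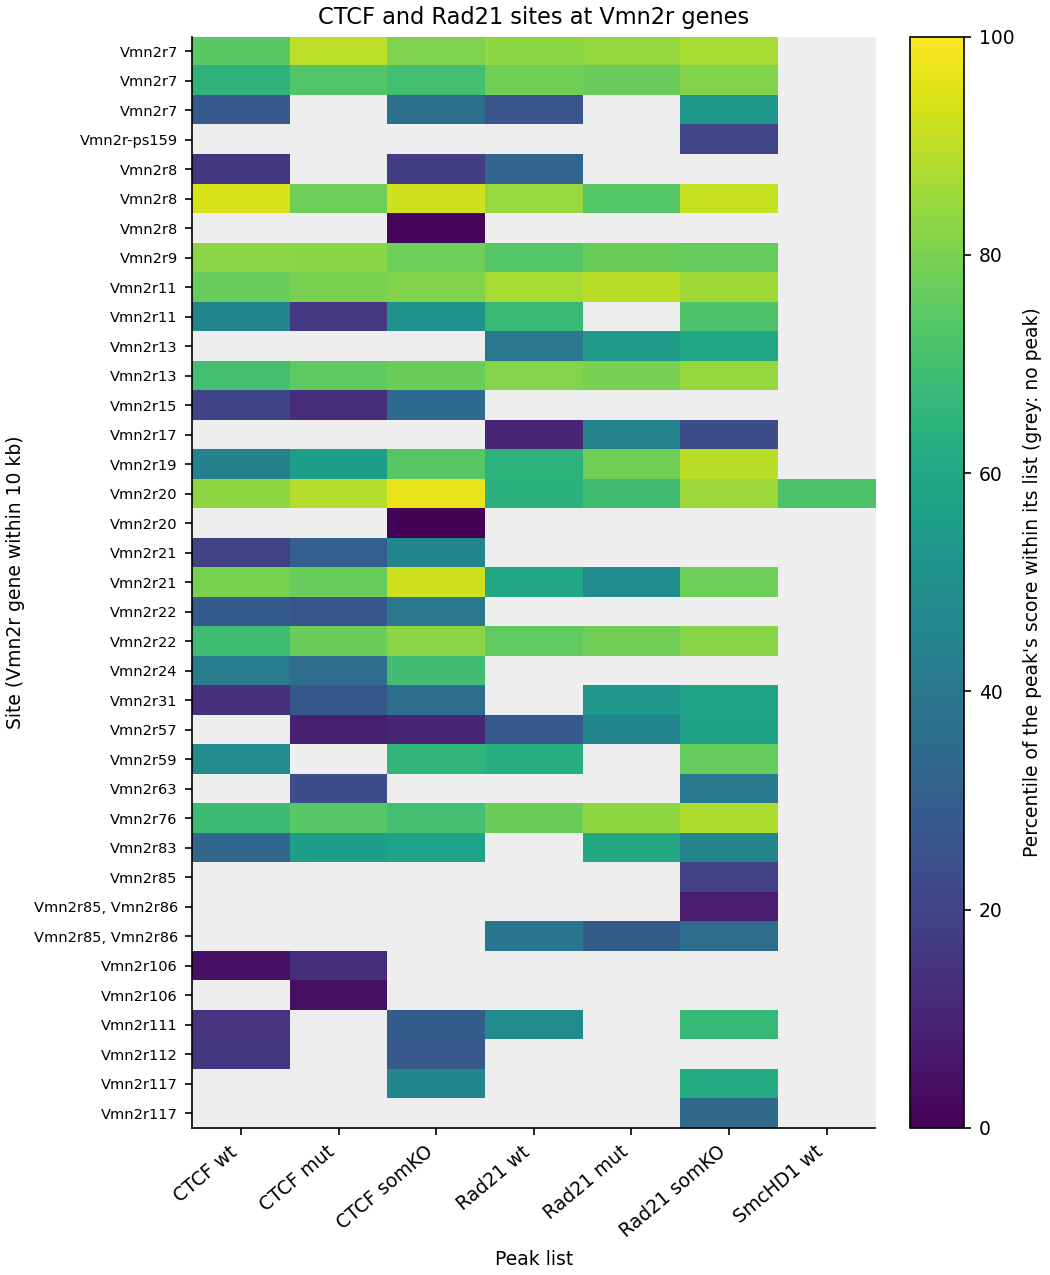
The 37 CTCF and Rad21 sites in the Vmn2r windows (rows, in genome order, labelled by the gene) and the percentile of the peak's score within its own list (colour, 0 to 100) in the CTCF and Rad21 lists and in SmcHD1 wt (grey: no peak). Sites with a peak in all 6 CTCF and Rad21 lists, such as those at Vmn2r8, Vmn2r11 and Vmn2r76, stand beside sites of low percentile that are present in 1 or 2 genotypes, and 1 site overlaps a SmcHD1 peak.

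To ask whether loss of SmcHD1 changed the family, the number of peaks was compared with wt relative to the change of the whole list. CTCF peaks numbered 25 in wt and 24 in mut, a change of -0.01 on the log2 scale relative to the autosomes (-0.88 to 0.86), and 28 in somKO, a relative change of -0.04 (-0.88 to 0.79). Rad21 peaks numbered 21 in wt and 17 in mut, a relative change of -0.28 (-1.29 to 0.72), and 28 in somKO, a relative change of 0.01 (-0.86 to 0.90). Each interval includes 0 and reaches to at least 0.72 above it and to -0.86 or lower, so that changes within these limits were not detectable with these counts. The autosomes themselves spread by 0.0757 to 0.169 (SD of the log2 change over 19 autosomes).

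By gene, 4 members had more CTCF peaks in mut than in wt, against 23.3% of all genes, and 5 had fewer, against 24.3%. For CTCF in somKO 4 had more, against 33.8%, and 2 fewer, against 12.1%. For Rad21 in mut 2 had more, against 28.9%, and 6 fewer, against 25.8%. For Rad21 in somKO 8 had more, against 46.2%, and 2 fewer, against 11.5%. Only members with a peak in either list can differ, and these numbered 20 for CTCF in wt or mut and 18 for Rad21 in wt or mut.

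The largest differences were of 1 or 2 peaks. CTCF peaks in mut were 1 more than in wt at Vmn2r21 (2 in wt, 3 in mut), Vmn2r57 (0 and 1) and Vmn2r63 (0 and 1), and 1 fewer at Vmn2r7 (3 and 2), Vmn2r13 (2 and 1) and Vmn2r59 (1 and 0). In somKO, Vmn2r8 had 2 more CTCF peaks (2 in wt, 4 in somKO), Vmn2r20 (1 and 2) and Vmn2r57 (0 and 1) had 1 more, and Vmn2r22 (3 and 2) and Vmn2r106 (1 and 0) 1 fewer. The Vmn2r8 and Vmn2r20 additions included peaks at percentiles 1.82 and 0.558 of the somKO list.

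For Rad21 in mut, Vmn2r31 and Vmn2r83 had 1 peak where wt had none, and Vmn2r7 (3 in wt, 2 in mut), Vmn2r8 (2 and 1) and Vmn2r11 (2 and 1) had 1 fewer. In somKO, Vmn2r85 (1 in wt, 3 in somKO) and Vmn2r117 (0 and 2) had 2 more Rad21 peaks and Vmn2r-ps159 (0 and 1) had 1 more. Vmn2r8 (2 and 1) and Vmn2r13 (3 and 2) had 1 fewer. Some of these differences came without any gain or loss of a site. At Vmn2r13 and Vmn2r22, neighbouring wt peaks were joined into 1 CTCF peak in mut and in somKO, respectively, and at Vmn2r21 a wt CTCF peak was divided in mut. Rad21 peaks at Vmn2r13 were likewise joined in somKO.

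By overlap, 5 of 25 CTCF wt peaks in the windows had no counterpart in mut, 20.0% (8.86 to 39.1), against 19.4% ± 4.41 (SD over 19 autosomes), and 4 of 24 mut peaks had none in wt, 16.7% (6.68 to 35.8), against 16.8% ± 3.93. In somKO 1 of 25 was lost, 4.00% (0.710 to 19.5), against 7.59% ± 1.90, and 4 of 28 gained, 14.3% (5.70 to 31.5), against 22.2% ± 3.53. For Rad21 the lost share was 23.8% (10.63 to 45.1) in mut, against 28.5% ± 5.50, and 4.76% (0.846 to 22.7) in somKO, against 7.27% ± 2.42. The gained share was 11.8% (3.29 to 34.3) in mut, against 26.8% ± 5.31, and 32.1% (17.9 to 50.7) in somKO, against 37.4% ± 4.54. The autosomal share lay inside the interval for each of these comparisons. The CTCF result in mut depended on the overlap asked for. With 50% of both peaks in place of 1 bp, 56% (37.1 to 73.3) of CTCF wt peaks at members were lost in mut, against 31.2% ± 4.88 over the autosomes, and 54.2% (35.1 to 72.1) of mut peaks were gained, against 28.4% ± 4.42. Both intervals lay above the autosomal shares at this setting, whereas for CTCF in somKO and for Rad21 in either genotype the autosomal share lay inside the interval.

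At 5 sites CTCF was present in wt and somKO but not in mut, at Vmn2r7, Vmn2r8, Vmn2r59, Vmn2r111 and Vmn2r112, with percentiles in wt from 15.5 to 48.2. Rad21 was present in wt and absent in mut at 4 of these, and Vmn2r112 had none in any genotype. No site had CTCF in wt alone. The sites with CTCF in somKO alone lay at Vmn2r8, Vmn2r20 and Vmn2r117, and those with CTCF in mut alone at Vmn2r63 and Vmn2r106. The somKO site at Vmn2r20, at percentile 0.558, starts at chr6:123425686. It adjoins the site with CTCF in all 3 genotypes, which ends at chr6:123425682, and may be part of it.

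At 114 of 121 members RefSeq's GRCm38 promoter sequences (250 bases before to 50 after a gene start) could be matched by symbol. A single promoter overlapped CTCF peaks in all 3 genotypes: that of Vmn2r29, at a second RefSeq start 30.96 kb before the start that GENCODE gives the gene and thus outside its window. GENCODE places the start of Gm45844, which spans Vmn2r29, at this position. It is printed 5′ to 3′ on the minus strand, with matches to the CTCF core, at most 1 mismatch, in capitals.
Vmn2r29, second RefSeq start, chr7:7278240-7278539: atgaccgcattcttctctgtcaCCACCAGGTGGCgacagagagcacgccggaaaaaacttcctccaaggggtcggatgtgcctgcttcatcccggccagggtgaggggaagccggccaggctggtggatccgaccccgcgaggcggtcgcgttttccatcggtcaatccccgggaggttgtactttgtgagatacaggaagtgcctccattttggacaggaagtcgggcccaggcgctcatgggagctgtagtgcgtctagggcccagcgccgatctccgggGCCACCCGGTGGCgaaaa
The stretch held 3 matches over both strands, 1 of them exact and the other 2 overlapping, with 62.3% GC and 23 CpG in 300 bases. An exact core was present in 0.595% of 19174 promoters of protein-coding genes and a match with at most 1 mismatch in 4.73%, and among 115 promoters of members that of Vmn2r29 was the only one with either. All 8 lists had a peak there. The SmcHD1 peak had a percentile of 99.02 in the wt list and 12.1 in the mut list. For CTCF the percentiles were 98.3 (wt), 90.3 (mut) and 99.5 (somKO), and for Rad21 they were 81.5, 94.1 and 84.3. Of the sampled words, 65.0% were unique in the SmcHD1 wt peak. No other member promoter overlapped a peak of any list. Of 15687 protein-coding genes with such a promoter, 17.8% (wt), 23.6% (mut) and 22.1% (somKO) overlapped a CTCF peak, 42.3%, 50.5% and 51.7% a Rad21 peak, and 2.80% a SmcHD1 wt peak.

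Other chemoreceptor families were set beside Vmn2r by the same counting. The 208 Vmn1r genes, which encode the type 1 vomeronasal receptors, had 3.799 CTCF and 3.799 Rad21 wt peaks per Mb (2.32 to 5.87 for each), intervals that overlap those of Vmn2r. Their sequence was similarly repeated, with 64.7% unique words. The 1128 olfactory receptor genes (Olfr) had 7.81 CTCF (6.69 to 9.05) and 7.27 Rad21 (6.199 to 8.48) wt peaks per Mb, ranges that lie above those of Vmn2r. Their share of unique words was 84.7%. The 15 trace amine receptor genes (Taar) had 25.4 per Mb of each (8.24 to 59.2), near the autosomal density.

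SmcHD1 wt densities had overlapping intervals in the 3 large families, at 1.17 per Mb for Vmn2r, 1.33 (0.535 to 2.74) for Vmn1r and 1.07 (0.686 to 1.59) for Olfr. Families of another kind in repeated arrays differed: the 7 Speer4 genes on chromosome 5, expressed in testis, held 24 SmcHD1 wt peaks, or 136 per Mb (86.9 to 202), with 55.2% unique words, whereas the 46 defensin genes on chromosome 8, which encode antimicrobial peptides, held none, with 56.7%. The interval for the defensins, up to 4.23 per Mb, includes the autosomal density.

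**Figure D5:**
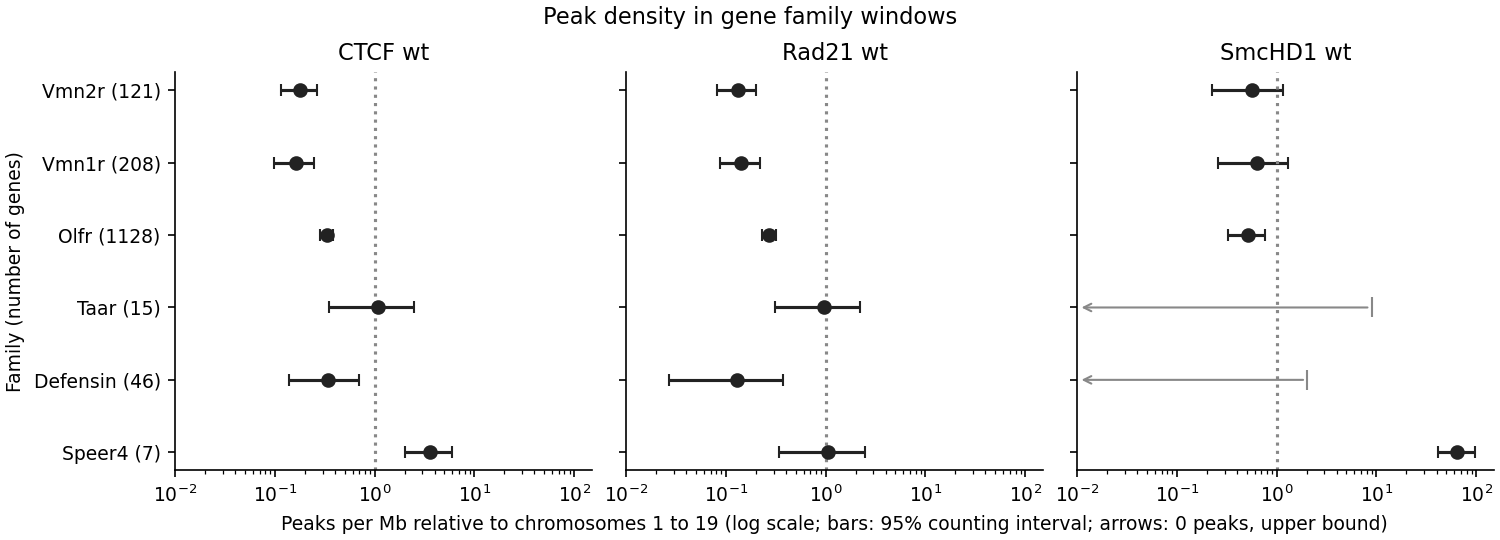
Peak density in the windows of 6 gene families relative to chromosomes 1 to 19 (log axis, dotted line at equal density) for CTCF, Rad21 and SmcHD1 in wt, with 95% counting intervals (arrows: 0 peaks, upper bound). Vmn2r and Vmn1r lie near 0.2 or below for CTCF and Rad21, Olfr lies at 0.330 and 0.272, and Speer4 stands far to the right for SmcHD1.

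Genes listed for vomeronasal signalling did not share the sparse pattern as a group. The H2-M genes among them held CTCF and Rad21 peaks less often than the others. Of 20 such genes, 15 had a CTCF wt peak in the gene or its 10 kb flanks and 14 a Rad21 wt peak, which is 75.0% and 70.0%, near the shares of all genes. All of the 11 genes for signal transduction and its partners held CTCF in each genotype, among them Trpc2, the cation channel of vomeronasal neurons (2 wt peaks), Gnao1, the G protein alpha subunit paired with the type 2 receptors (3), and B2m, the light chain of class I molecules (3). Of the 9 H2-M genes, the class I molecules expressed with type 2 receptors, 4 held CTCF in each genotype: H2-M10.2, H2-M10.3, H2-M10.5 and H2-M10.6. H2-M10.3 (chr17:36365003-36368417) was the only gene of the 20 with a SmcHD1 wt peak, 1 in number, and had none in mut.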

How the data were processed

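The members, gene lists and comparisons were chosen with earlier results of these data known. Per the methods of the study, the authors aligned reads with Bowtie2 to mm10 with strain variants masked and made narrow peaks with MACS2 at q below 0.05 from merged replicates, both alleles together; versions and the use of inputs are not given in the sources used here. EGS and formaldehyde fixed the chromatin for SmcHD1 and Rad21, formaldehyde alone that for CTCF. The deposited lists hold positions and a score, read as 10 times -log10 q because the lowest is 13 in each list. This reading is inferred, and the score served only to rank peaks within a list. H3K27me3 and input libraries were not used here.

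A peak counted if it overlapped a window (GENCODE M21 gene with 10 kb on either side) by 1 bp, and lost and gained peaks were those with no overlap in the other list. Intervals (95%, counting error only) were exact Poisson for densities, conditional exact for ratios and Wilson for shares. They do not cover variation between libraries, and peaks close together are not independent. Uniqueness was taken from all 50-base words of the genome, sampled at 20 words per peak and 500000 on the autosomes. Genes were named by fixed rules: ends of clusters, the 10 members with most SmcHD1 wt peaks, the 5 with most CTCF and Rad21 wt peaks, and the 3 largest rises and falls, ties in genome order. Sites, members with peaks and the pair of dense clusters were named after their values were seen. Counting and intervals were tested on simulated data. Python 3.11.15, numpy 2.4.6, pandas 2.3.3, scipy 1.17.1 and numba 0.67.0 were used.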

Additional observations from a re-analysis of the deposited data

Results flagged for a closer look

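SmcHD1 wt peaks near Vmn2r genes that are not annotated as protein-coding lay outside the comparisons above. Within 10 kb of the 114 such autosomal genes, and outside the windows of the protein-coding members, the wt list held 35 peaks in 3.05 Mb, or 11.5 per Mb (8.00 to 16.0), against 2.09 over the autosomes, and the mut list held 0 (up to 1.21 per Mb). The places were singled out after their values were seen. The mut list held 241 autosomal peaks in all, against 5154 in wt, so that a lower count in mut is no separate result here. Peaks in repeated sequence are not independent counts, which the interval does not cover. Of the 35, 22 lay on chromosome 13, where 9 of 12 such genes had a peak, with the most at Vmn2r-ps99 (5), Vmn2r-ps95 (4) and Vmn2r-ps106 (4). A further 10 lay on chromosome 4, where 6 of 7 had one. In 10 of the 35 peaks at least 50% of sampled words were unique. CTCF and Rad21 wt densities at the same places were 5.91 and 4.92 per Mb, near those of the protein-coding members. The part of read mapping was not tested.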

How the results depend on the processing

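Of 102 alternative values for 18 results, 90 stayed inside the counting interval of the main value, or within 1.5 times for a count. The changes relative to the autosomes, whose intervals all include 0, had no stable sign: of 11 alternatives each, the sign was the other one in 2 for CTCF in mut (-0.18 to 0.18 on the log2 scale), 1 for CTCF in somKO (-0.21 to 0.09), 1 for Rad21 in mut (-0.39 to 0.05) and 6 for Rad21 in somKO (-0.20 to 0.14). The ratio of CTCF wt density to the autosomes was 0.177 and became 0.262 without the members on chromosome 7. The Rad21 wt ratio was 0.132 and became 0.0813 with no flank. Members with a SmcHD1 wt peak numbered 5, 2 with no flank and 10 with a flank of 50 kb. An overlap of 50% of both peaks raised the gained and lost shares of CTCF in mut to 54.2% and 56% (autosomes 28.4% and 31.2%), of CTCF in somKO to 32.1% and 24% (30.4% and 19.8%), of Rad21 in mut to 29.4% and 42.9% (46.6% and 48.2%) and of Rad21 in somKO to 60.7% and 47.6% (55.4% and 41.3%). It lowered the share of SmcHD1 wt peaks that overlapped CTCF from 14.3% to 0%, which rose to 33.3% with scores of at least 50. With scores of at least 50, the lost share of CTCF in somKO was 0%. In these cases the settings themselves changed which peaks or bases were counted. Leaving out the 2 members with a pseudogene name, an alternative chosen after seeing the data, moved none of these values by more. No paired analysis was possible because each list merges the replicates of its group. For the same reason no replicate could be left out. Sequencing depth is unknown. With counts of this size the intervals of the changes reached up to between 0.72 and 0.90 and down to between -0.86 and -1.29 on the log2 scale.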

Other observations

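Vmn2r121, the protein-coding member of the family on X (chrX:124124961-124135952), had 1 SmcHD1 wt peak and 1 Rad21 somKO peak in its window and none in the other 6 lists. A single peak in 0.0310 Mb is 32.3 per Mb with a counting interval from 0.817 to 180, which includes the density of 10.48 SmcHD1 wt peaks per Mb over X.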
